A study of Drosophila melanogaster with 2 samples.

Results

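The genes described here are 6 members of the Drosophila melanogaster sex determination and dosage compensation pathway other than doublesex, taken by name from 13945 protein-coding genes of the major chromosome arms: Sex-lethal (Sxl), fruitless (fru), transformer (tra), transformer 2 (tra2), intersex (ix) and male-specific lethal 2 (msl-2). Their peaks come from ChIP-seq of Dmrt99B, a DM-domain transcription factor, recovered through an eGFP tag fused to its C-terminal end in transgenic embryos aged 6 to 16 h. The labels give 1 group, made of biological replicates 3 and 4, each from whole embryos of pooled sex that carry the fusion. No peaks from untagged embryos were used here, so no comparison between groups was possible and no test was run. Whole embryos mix tissues, and pooled males and females mix sexes, so binding in a given cell type or sex cannot be told apart. The tagged protein was the only form recovered, and how its level compares with that of untagged Dmrt99B was not measured here.

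In flies the number of X chromosomes sets whether Sxl, an RNA-binding protein, is made. Sxl switches on briefly in the early female embryo from an early promoter, and both sexes later transcribe it from a late promoter, whose transcript gives full protein only when Sxl protein itself directs the splicing. Sxl then directs splicing of tra, and Tra with Tra2 directs splicing of dsx and fru, while Sxl also blocks msl-2, which keeps the X-wide dosage compensation complex a male feature. Dsx carries the same kind of DNA-binding domain as Dmrt99B, and ix encodes a partner of the female form of Dsx.

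A peak was given to a gene when its summit lay in the gene body or when its nearest protein-coding transcription start site (TSS) was one of that gene. The main list was the one that passed the authors' threshold on the irreproducible discovery rate (IDR), which draws on whether peak ranks recur between replicates. The IDR list held 7838 peaks, and the relaxed lists of the pooled reads, of replicate 3 and of replicate 4 held 30000 each. Each Sxl and fru peak on the IDR list had the same rank there as in the pooled list. A place on the IDR list was not taken to show that a given peak ranked alike in both replicates. The dsx peak on it ranked 2304 in replicate 3 and 11386 in replicate 4. The signal value quoted for each peak is the authors' score, on a scale that is not stated and differs between lists, so strength was compared by rank within a list, with rank 1 the strongest. Read depth was unknown. Since both replicates entered the pooled and IDR lists, the spread of a site is given as its ranks in the 2 replicate lists, and nothing in the labels beyond the word biological says how the replicates were raised.

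Dmrt99B was recovered at 2 of the 6 genes, Sxl and fru, each with 4 IDR summits. The other 4 genes, tra, tra2, ix and msl-2, were given none from the IDR list and none from the relaxed lists. Sxl and fru also were the genes with an IDR summit within 1000 bp of a TSS, which makes 2 of 6, or 33.3% (95% Clopper-Pearson interval 4.33% to 77.7%). Of all protein-coding genes, 20.1% had such a summit, and 27.8% had one in the body or nearest to a TSS. These intervals cover counting error over genes only, and the share of the 6 genes is not distinguishable from that of all genes at this number.

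The bases beneath the summits that carry these results are shown here on the strand of the gene, which is the minus strand for both genes, from the RefSeq sequence of release 6 (dm6). The strongest Sxl peaks lay downstream of the late promoter, and capitals mark the 11 bases at each summit in the first pair of lines below. In the third line capitals mark a match to CAGTGTA, which reads TACACTG on this strand, inside the weaker intron peak and near the end of the stretch shown.
Sxl, chrX:7095625-7095825: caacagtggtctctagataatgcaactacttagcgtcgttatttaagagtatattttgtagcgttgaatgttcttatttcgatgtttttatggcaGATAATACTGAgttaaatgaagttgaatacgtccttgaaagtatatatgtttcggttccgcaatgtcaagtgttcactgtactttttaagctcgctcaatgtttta
Sxl, chrX:7096581-7096781: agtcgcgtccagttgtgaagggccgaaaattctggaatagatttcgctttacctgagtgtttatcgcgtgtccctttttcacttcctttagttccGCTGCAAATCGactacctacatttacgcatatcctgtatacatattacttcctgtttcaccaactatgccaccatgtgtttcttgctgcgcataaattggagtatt
Sxl, chrX:7094966-7095176: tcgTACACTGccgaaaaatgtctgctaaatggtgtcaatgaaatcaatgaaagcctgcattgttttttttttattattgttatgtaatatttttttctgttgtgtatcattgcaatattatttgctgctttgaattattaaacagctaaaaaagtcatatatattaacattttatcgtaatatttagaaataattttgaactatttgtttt

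The 100 bases just upstream of the late Sxl TSS are shown because the late promoter held a peak and the early one did not. Capitals mark a match to motif 1 of the core promoter factor M1BP.
Sxl, chrX:7098054-7098153: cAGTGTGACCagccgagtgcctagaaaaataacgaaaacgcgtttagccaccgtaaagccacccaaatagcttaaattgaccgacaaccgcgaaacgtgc

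For fru the strongest site is shown with its 11 summit bases in capitals. It is followed by the stretch from the 3′-most fru promoter to beyond the summit upstream of it, with the DM core in capitals, and by the summit window that held a doublesex-type site, also in capitals.
fru, chr3R:18436687-18436887: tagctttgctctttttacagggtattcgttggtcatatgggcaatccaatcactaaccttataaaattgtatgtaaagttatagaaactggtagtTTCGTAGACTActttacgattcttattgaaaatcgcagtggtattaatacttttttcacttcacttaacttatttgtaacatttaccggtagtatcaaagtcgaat
fru, chr3R:18438772-18439036: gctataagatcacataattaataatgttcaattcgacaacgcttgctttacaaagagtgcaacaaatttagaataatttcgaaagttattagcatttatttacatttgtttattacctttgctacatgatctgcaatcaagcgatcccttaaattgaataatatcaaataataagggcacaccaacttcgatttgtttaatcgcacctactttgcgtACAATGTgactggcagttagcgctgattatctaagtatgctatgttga
fru, chr3R:18456281-18456481: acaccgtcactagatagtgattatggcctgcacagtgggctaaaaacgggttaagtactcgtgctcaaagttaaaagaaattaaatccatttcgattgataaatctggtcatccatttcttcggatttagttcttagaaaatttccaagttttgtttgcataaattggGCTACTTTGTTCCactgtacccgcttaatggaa

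Sxl (FBgn0264270) occupies X from 7074550 to 7098053, 23.5 kb on the minus strand, with 25 annotated transcripts from 4 TSSs. The late promoter is the 5′-most of these, at 7098053, and starts 18 transcripts. The early promoter was taken as the TSS at 7092883, 5170 bp downstream, because its 4 transcripts splice their first exon straight to the exon at 7087614 that all transcripts share, which is how the early transcript is known to be built. Between them lie a TSS at 7097768 with 1 transcript and a TSS at 7097066 with 2 transcripts, 285 and 987 bp downstream of the late one.

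All 4 Sxl summits lay in the stretch from the late promoter towards the early one. The strongest was in an intron, with its summit at 7095725, 2328 bp downstream of the late TSS and 2842 bp upstream of the early TSS. Its signal value was 1251 in the pooled list, 907 in replicate 3 and 351 in replicate 4. It ranked 732, 715 and 776 in those lists, so both replicates placed it among their strongest 3919 peaks, with summits 36 bp apart.

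The next Sxl site had its summit at 7096681, 385 bp downstream of the TSS at 7097066 and 1372 bp downstream of the late TSS. Its signal value was 1101 in the pooled list, 780 in replicate 3 and 320 in replicate 4, at ranks 880, 898 and 901. The replicates therefore differed by 3 ranks at this site, the closest match among the Sxl and fru sites. Its summits in the replicates lay 8 bp apart.

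The other intron site, with its summit at 7095071, was weaker. It had signal values of 499 in the pooled list, 376 in replicate 3 and 135 in replicate 4, and ranked 2561, 2454 and 2863. It was the site closest to the early promoter, 2188 bp upstream of that TSS.

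The site at the late promoter itself was the weakest of the 4, with its summit at 7098019, 34 bp downstream of the late TSS. Its signal values were 213 in the pooled list, 145 in replicate 3 and 56.5 in replicate 4. It ranked 6343, 6872 and 7241, near the lower end of the IDR list. The summit of replicate 4 stood 43 bp upstream of the TSS at 7098096 and that of replicate 3 stood 35 bp downstream, so which side of the start the signal centred on was not settled by the replicates.

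No summit of any list lay closer to the early promoter than 2188 bp in the IDR, pooled and replicate 3 lists or 2225 bp in the replicate 4 list. The distance of 2188 bp is beyond the 1000 bp used to call a promoter bound. The relaxed lists added a single weak Sxl site, 175 bp upstream of the late TSS. It had signal value 70.8 and rank 17446 in the pooled list and rank 25652 in replicate 3. Replicate 4 had no separate summit for it. Its late promoter peak, from 7097898 to 7098293, spanned this site too and was joined to the closer pooled summit at 7098019. That peak was 396 bp wide, the median width of the replicate 4 list. No TSS of another gene lay within 1000 bp of any of the 8 IDR sites at Sxl and fru.

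**Figure D1:**
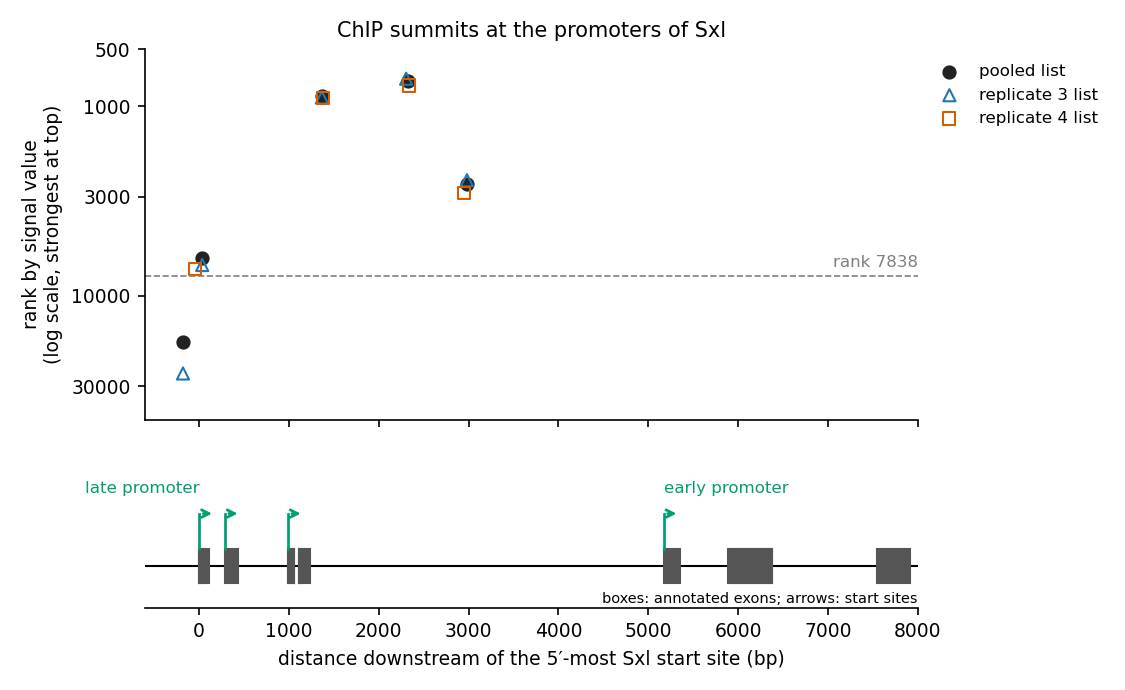
Summits along the promoter region of Sxl in the pooled, replicate 3 and replicate 4 lists, by distance downstream of the late TSS (bp) and by rank within each list (log scale, strongest at the top), above the annotated exons and TSSs; the dashed line is at rank 7838, the number of IDR peaks. The sites at 1372 and 2328 bp rank highest in all 3 lists, the late promoter site ranks 6343 to 7241, and no marker falls at the early promoter.

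The Sxl summits stood close together. The body of Sxl held 17.0 IDR summits per 100 kb, against 5.85 over all arms. Each of 3 Sxl sites had at least 2 further IDR summits within 2000 bp, and the fourth, at the late promoter, had 1. These neighbours were the other Sxl sites, so the counts describe 1 cluster and are not separate observations. Of all IDR summits, 14.4% had at least 2 neighbours at that distance. Of 1349 genes between 11.8 and 47.0 kb long, which spans lengths around that of Sxl, 16.8% held at least 4 IDR summits in the body, 60.6% held any, and the median was 1.

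fru (FBgn0004652) occupies 3R from 18414273 to 18545586, 131 kb on the minus strand, and encodes a family of BTB zinc-finger transcription factors. It has 15 annotated transcripts from 7 TSSs. The transcripts that are spliced by sex come from the most distal promoter, while other promoters give proteins common to both sexes. The annotation used here does not name the promoters, so they are given by position. The 5′-most TSS, at 18545586, starts 8 transcripts.

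The 4 fru IDR summits all lay in the 3′-most stretch of the promoter region, 89.2 to 109 kb downstream of the 5′-most TSS. The strongest was in an intron with its summit at 18436787, 1984 bp downstream of the 3′-most TSS at 18438771, which starts the transcript fru-RM. Its signal value was 678 in the pooled list, 486 in replicate 3 and 192 in replicate 4. It ranked 1760, 1761 and 1851, and the replicate summits lay 1 bp apart.

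The next, in an intron with its summit at 18456381, stood 6127 bp upstream of the TSS at 18450254 that starts fru-RD. Its signal values were 411 in the pooled list, 291 in replicate 3 and 123 in replicate 4, and its ranks were 3234, 3325 and 3186. It was the only one of the 8 sites that ranked higher in replicate 4 than in replicate 3.

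The remaining pair flanked the fru-RM promoter on its upstream side. The site with its summit at 18438936, 165 bp upstream of that TSS, had signal values of 374 in the pooled list, 284 in replicate 3 and 103 in replicate 4, at ranks 3574, 3424 and 3911. The site at 18439602, 831 bp upstream, had 219, 154 and 58.2 in the same lists, at ranks 6172, 6497 and 7029. At 18439602 the summit was at the same base in both replicates, and at 18438936 the replicate summits lay 34 bp apart.

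The 5′-most fru TSS had no IDR summit near it. The closest lay 28410 bp upstream, outside the gene. In the relaxed lists the closest summits were weak and in introns: 9437 bp downstream in the pooled list at rank 18170, 12173 bp downstream in replicate 3 at rank 14304, and 6309 bp downstream in replicate 4 at rank 18487. The TSS at 18447329, which starts fru-RA and fru-RL, had a weak pooled summit 1249 bp upstream with signal value 101 and rank 12646, present in both replicates at ranks 16642 and 13256. With these, fru had 10 summits in the pooled list, 10 in replicate 3 and 12 in replicate 4, all in the gene body.

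A single strong fru peak was seen in replicate 4 alone. Its summit at 18508508 lay in an intron, 1946 bp upstream of the TSS at 18506562 that starts fru-RI, with signal value 151 and rank 2483 in replicate 4, above its peak at each fru IDR site except the strongest. Neither the pooled list nor replicate 3 had a summit there. Among the 7838 strongest peaks of replicate 4, 4.21% (330 peaks) overlapped no pooled peak, and 277 of these overlapped no replicate 3 peak either. The same share was 1.34% for replicate 3. The fru peak is thus 1 of 277 of its kind, and its origin was not tested.

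**Figure D2:**
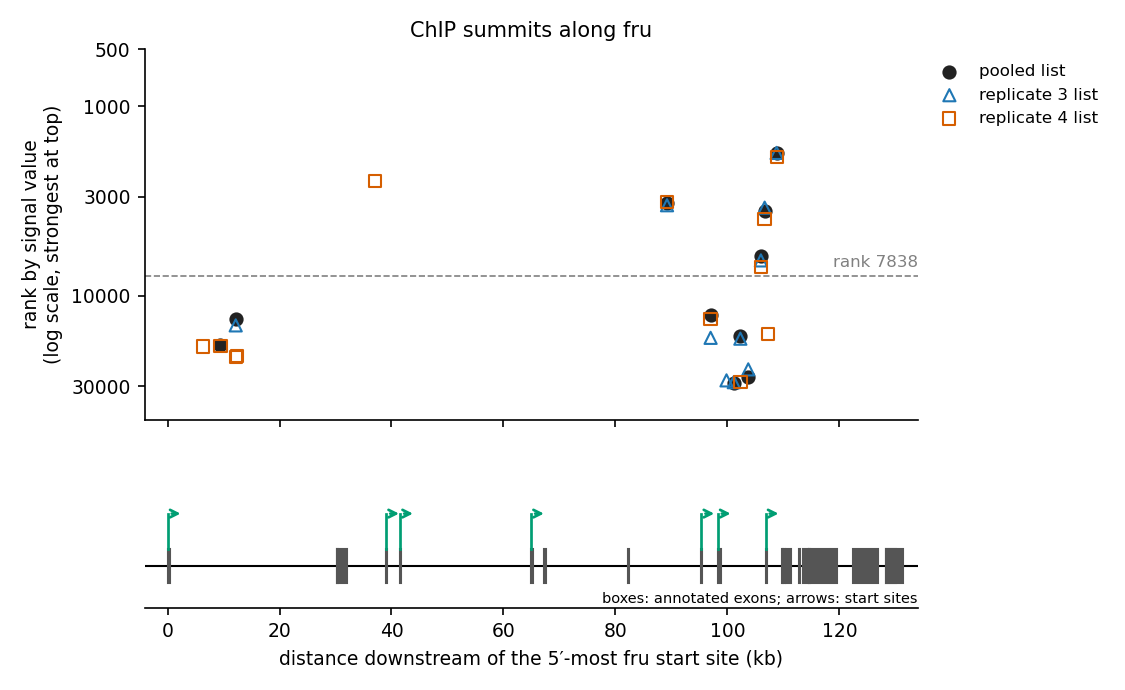
Summits along fru in the pooled, replicate 3 and replicate 4 lists, by distance downstream of the 5′-most TSS (kb) and by rank within each list (log scale, strongest at the top), above the annotated exons and TSSs; the dashed line is at rank 7838. The sites that rank above the line in all 3 lists lie 89.2 to 109 kb along the gene, the lone square at 37.1 kb is the replicate 4 peak at rank 2483, and the sites near the 5′-most TSS fall below the line.

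The number of fru summits was close to that of other long genes. The body of fru held 3.05 IDR summits per 100 kb, against 5.85 over all arms. Of 178 genes between 65.7 and 263 kb long, 54.5% held at least 4 IDR summits in the body, 85.4% held any, and the median was 4, the same number as in fru.

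The order of the 8 sites by rank was identical in the pooled list and in both replicates. From strongest to weakest it ran Sxl 7095725, Sxl 7096681, fru 18436787, Sxl 7095071, fru 18456381, fru 18438936, fru 18439602 and Sxl 7098019. The sites were taken from the IDR list, which favours peaks whose ranks recur between replicates, and the pooled list holds both replicates. The shared order is therefore a description and not independent support for it. The replicate ranks of neighbours in this order did not overlap, with the exception of the last pair, fru 18439602 at 6497 and 7029 and Sxl 7098019 at 6872 and 7241, which are therefore not ordered beyond their spread. By pooled rank the strongest site stood in the top 9.34% of the IDR list and the weakest at 80.9%. Across the 8 sites the replicate summits lay between 0 and 78 bp apart, with the largest gap at the late Sxl promoter.

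**Figure D3:**
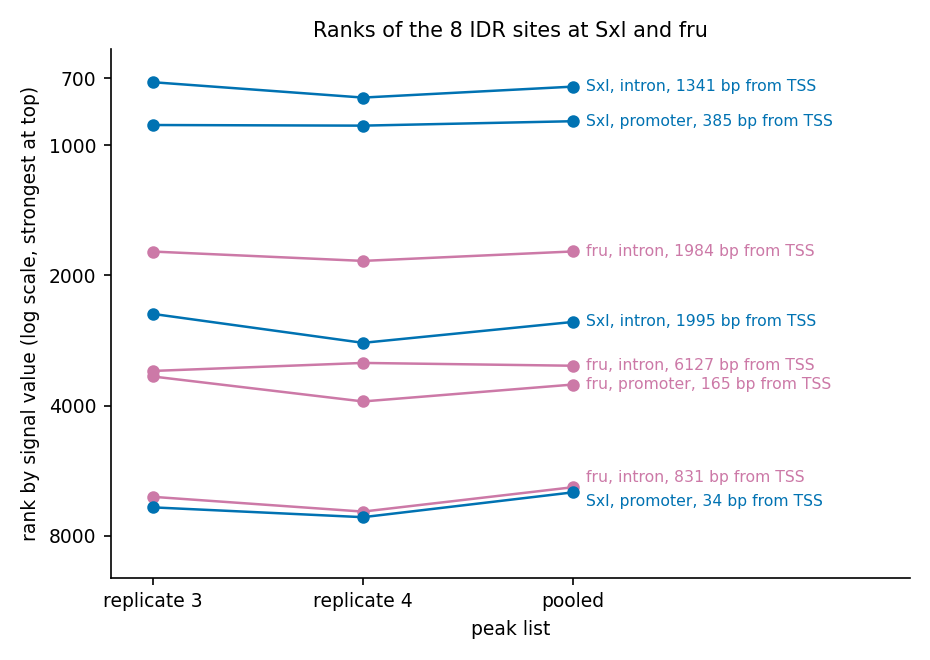
Rank (log scale, strongest at the top) of each of the 8 IDR sites at Sxl and fru in the replicate 3, replicate 4 and pooled lists, each line labelled with the gene, the location and the distance to the nearest TSS of that gene. The lines do not cross, from rank 732 at the top to rank 6343 at the bottom in the pooled list. The sites come from the IDR list, which favours peaks whose ranks recur.

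tra, tra2, ix and msl-2 are short genes, of 0.992, 2.33, 0.727 and 3.90 kb. Of all protein-coding genes under 4 kb, 18.0% had an IDR summit in the body or nearest to a TSS, and 32.9% had one in the relaxed pooled list. The 0 of 4 seen here is a small count beside these shares, and peak lists show where peaks were called and not that binding is absent.

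tra (FBgn0003741, 3L from 16590059 to 16591050) encodes a splicing regulator whose functional protein is made in females. Its closest IDR summit lay 9546 bp downstream of its TSS, with signal value 332 and rank 4018, 43 bp from the TSS of Smn, which encodes a protein of spliceosome assembly. The closest summit in replicate 4, at rank 6064, was also nearest to Smn. In replicate 3 a different summit was closest, 8176 bp downstream at rank 7428 and nearest to Rpn12. tra2 (FBgn0003742, 2R from 14602004 to 14604337), the RNA-binding partner of Tra, was the farthest from a peak, with an IDR summit 20350 bp upstream of its TSS at rank 4425, nearest to CG12863. In replicate 3 the closest summit to tra2 was 20346 bp upstream at rank 5056. In replicate 4 it was a weak one 13704 bp downstream, at rank 17840.

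msl-2 (FBgn0005616, 2L from 3462218 to 3466112) encodes the subunit that limits assembly of the dosage compensation complex to males. Its closest IDR summit, 10005 bp upstream, was strong, with signal value 683 and rank 1749 in the pooled list and rank 1777 in replicate 3. It lay 2317 bp from the TSS of Thor, the translation inhibitor 4E-BP, which was the nearest gene. In replicate 4 a weak summit at rank 19282 was closer, 8632 bp from msl-2. Only the closest summit of each list was read, so the replicate 4 rank of the strong site is not given, which does not mean it was absent there.

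ix (FBgn0001276, 2R from 11359437 to 11360163) encodes a cofactor and Mediator subunit that acts with the female Dsx protein. Its closest IDR summit lay 7396 bp upstream, at rank 6068. The relaxed lists held a summit nearer to it, 973 bp downstream of its TSS in the pooled list, 961 bp in replicate 3 and 989 bp in replicate 4, which is past the 3′ end of this short gene. It had signal value 159 and rank 8271 in the pooled list, just outside the IDR list, and ranks 8726 and 8064 in the replicates. This summit stood 14 bp from the TSS of the neighbour CG12384 and was therefore given to CG12384, although it counts within 1000 bp of ix.

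Set on the scale of all genes, the 6 genes spread widely. The closest IDR summit was as near as that of Sxl, or nearer, in 1.51% of protein-coding genes, and for fru in 7.83%. The same share was 50.1% for ix, 57.6% for tra, 58.9% for msl-2 and 80.5% for tra2. The median distance over 13945 genes was 7.35 kb, with quartiles of 1.83 and 16.9 kb. Genes with many TSSs have more chances of a close summit, and Sxl and fru, with 4 and 7, had more TSSs than the 1 or 2 of the other genes.

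**Figure D4:**
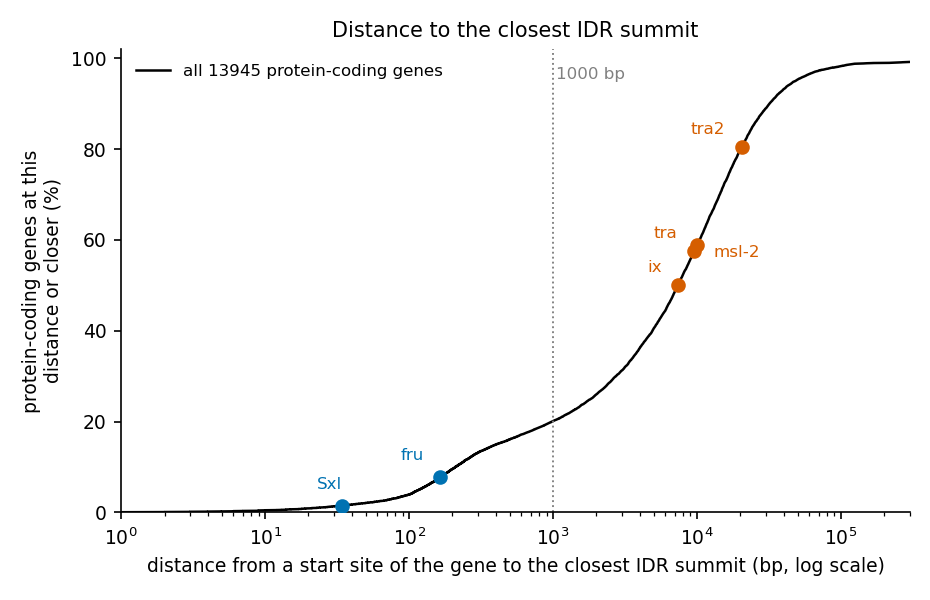
Share of the 13945 protein-coding genes (%) whose closest IDR summit lies at a given distance from a TSS or nearer (bp, log scale), with the 6 genes marked as points and a dotted line at 1000 bp. Sxl and fru lie left of the line, at 1.51% and 7.83%, and ix, tra, msl-2 and tra2 lie right of it, between 50.1% and 80.5%.

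The DM core, ACAATGT on either strand (ACATTGT on the other), is the short sequence that DM-domain proteins of this family are known for. It was in 0 of the 8 windows that reach 100 bp to either side of the Sxl and fru summits (95% Clopper-Pearson interval 0% to 36.9%), and in 3.99% of all IDR windows. No IDR peak interval at the 8 sites held it, against 6.19% of all IDR peaks. With 8 windows, a count of 0 cannot be told apart from a share of 3.99%.

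The closest DM cores stood 120 to 2732 bp from the summits. The nearest was the match shown in capitals above, 42 to 48 bp upstream of the fru-RM TSS. It stood 120 bp from the summit at 18438936, between the TSS and the IDR peak. The replicate 4 peak at this site, from 18438765 to 18439160, spanned both the match and the TSS. Its width of 396 bp was the median of that list, so the span was not taken as a broader signal. Of the stretches of 100 bp upstream of all 19253 protein-coding TSSs, 1.24% held the DM core. The fru-RM match was singled out as the DM core closest to a summit. The share therefore describes all TSSs and does not test whether the match at fru-RM is unusual. At Sxl the closest DM core was 364 bp from the late promoter summit and 974 to 2584 bp from the other 3.

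The longer doublesex-type site, which allows other bases around a related core, was in 1 of 8 windows (12.5%, interval 0.316% to 52.7%), against 3.46% of all windows. It is the fru intron window at 18456381, where it starts 80 bp and ends 68 bp before the summit in genome coordinates.

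CAGTGTA on either strand, a string chosen from earlier results on these peaks, was wholly inside 0 of 8 windows, against 8.42% of all. The peak at Sxl 7095071 held a match centred 99 bp from the summit, which makes 1 of 8 peak intervals, against 12.1% of all. The DRE core TATCGATA, bound by the factor DREF, and GAGAG, a string bound by GAGA factor, were in 0 of 8 windows, against 1.33% and 20.6% of all windows. M1BP motif 1, GGTCACACT on either strand, stood 91 to 99 bp upstream of the late Sxl TSS; it was searched after this stretch had been read, and 1.91% of the stretches upstream of all TSSs held it. A match describes the letters in a window and shows neither a bound site nor a cause.

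The base composition of the windows varied. GC content ranged between 23.9%, at Sxl 7095071, and 42.3%, at Sxl 7096681, and the median over all IDR windows was 32.8% with quartiles of 28.9% and 37.8%.

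The rest of the pathway was read from 4 lists, by the same rule of an IDR summit within 1000 bp of a TSS. Among the genes that read the X chromosome signal for Sxl, 3 of 9 were bound (33.3%, interval 7.49% to 70.1%), beside 20.1% of all genes. These were gro, the corepressor Groucho, with signal value 1817 and rank 358, da, the bHLH partner of the X-linked activators, with 450 and rank 2915, and emc, a bHLH inhibitor, with 279 and rank 4815. The X-linked signal genes sisA, sc, run and upd1 had their closest IDR summits at 4.08, 33.7, 2.75 and 14.0 kb.

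Among cofactors through which Sxl acts on RNA, 4 of 10 were bound (40.0%, interval 12.2% to 73.8%), beside 20.1% of all genes. Unr, which represses msl-2 mRNA together with Sxl, had signal value 525 and rank 2417. fl(2)d and Hakai, of the m6A methylation machinery that helps Sxl splicing, had 483 at rank 2664 and 204 at rank 6599. Mettl3, the methyltransferase itself, had 218 at rank 6207, 957 bp away. The nearest gene to that summit was KrT95D, and the summit at fl(2)d was nearer to CG13339.

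Dosage compensation genes other than msl-2 gave 0 of 5 bound (interval 0% to 52.2%), a small count beside 20.1% of all genes. The closest summits to mof, msl-1, msl-3, Clamp and mle lay at 3.80, 5.45, 8.68, 20.5 and 36.8 kb. The non-coding roX1 and roX2 had theirs at 4558 and 1402 bp.

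Of the terminal and target genes of the pathway, 2 of 9 were bound (22.2%, interval 2.81% to 60.0%), beside 20.1% of all genes. dsx had a summit 450 bp from a TSS with signal value 483 and pooled rank 2665, at ranks 2304 in replicate 3 and 11386 in replicate 4. Poxn, a Pax-family factor, had 250 at rank 5417. bab1 and bab2, regulators of abdominal pigmentation, are long genes of 64.7 and 36.8 kb and had 7 and 5 summits in the body or nearest to them, none within 1000 bp of a TSS. These counts were not set against genes of like length. Over the 4 lists, 9 of 33 protein-coding genes were bound (27.3%, interval 13.3% to 45.5%), beside 20.1% of all genes. The intervals of the 4 lists and of the total all cover 20.1%, so none was distinguishable from the share of all genes.

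**Figure D5:**
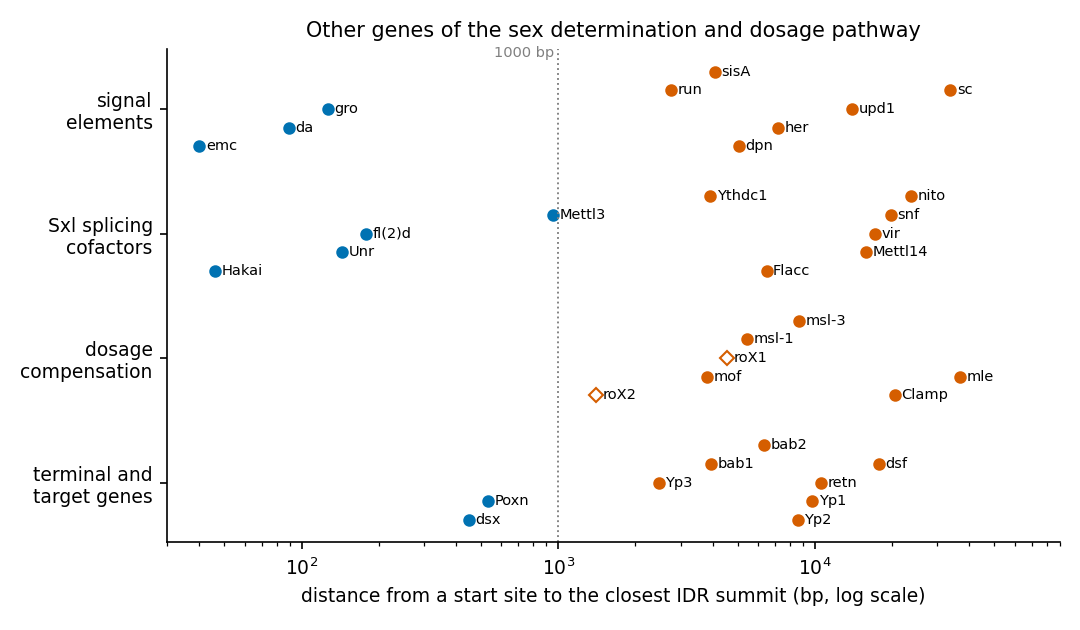
Distance from a TSS to the closest IDR summit (bp, log scale) for the other genes of the pathway in 4 lists, with a dotted line at 1000 bp; diamonds are the non-coding roX RNAs. Of the 33 protein-coding genes, 9 lie left of the line, and the dosage compensation genes, 5 of them protein-coding, all lie right of it. Of all protein-coding genes, 20.1% had an IDR summit within 1000 bp of a TSS.

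The genes most like Sxl and fru in strength were found by the sum of absolute log2 rank differences over the 2 replicates, among 2758 genes with a promoter-bound summit in each replicate list. This uses the strongest summit within 1000 bp of a TSS, which for Sxl was the site at ranks 898 and 901. The closest were CG7220 and Daao1, which share a peak at ranks 889 and 930, a distance of 0.06. For fru, at ranks 3424 and 3911, the closest were CG6833, at 3376 and 3910 with a distance of 0.02, and His2Av, the histone H2A variant, at 3412 and 3981 with a distance of 0.03. Likeness over 2 replicates describes peak strength alone.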

How the data were processed

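ChIP-seq peaks of Dmrt99B-eGFP were described in 2 biological replicates of mixed-sex embryos. Per the labels, chromatin was sonicated, precipitated with an anti-GFP antibody (the antibody entry names dmrt99B) and placed on the dm6 build. Per the deposited text listings, the authors made a relaxed list from each replicate and from both pooled, and the IDR list from these 3. Which aligner and peak caller were used is not given in the sources used here. The deposited lists give each peak's signal value, a score of unstated scale used for ranks within a list, a −log10 q value, which was not used to rank, and a distance from peak start to summit, in bases, which set the position. Every one of the 7838 IDR peaks was also in the pooled list. Because each relaxed list was cut at the same number of peaks, counts in these lists show nothing about depth.

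Peaks were joined to the Ensembl release 115 annotation and the RefSeq release 6 sequence with Python 3.11.15, numpy 2.4.6, pandas 2.3.3 and matplotlib 3.10.9. A summit within 500 bp of a TSS was classed as promoter. A replicate summit within 200 bp of pooled summits was taken as the same site as the closest of them. Assignment was tested on simulated data. The members, lists and motifs were chosen with earlier results of these data known. Named genes were all 6 members, up to 4 bound genes of highest signal per pathway list, the 2 genes closest in replicate rank to each bound member, and genes whose TSS lay near a member's summit. Other genes named (the neighbours of unbound members, further pathway genes, and M1BP motif 1) were chosen after their values were seen. Alternatives were other distances, the strongest 3919 IDR peaks, each replicate alone, the relaxed pooled list, peak overlap, any gene biotype and other motif windows.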

Additional observations from a re-analysis of the deposited data

How the results depend on the processing

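The count of 2 bound genes, Sxl and fru, was the same in 5 of 6 alternatives, including each replicate alone, and the relaxed pooled list gave 3 by adding ix. The count of 2 genes with assigned summits was 2 in all 6 alternatives tried. The 8 assigned summits became 15 in the relaxed pooled list, which is longer by construction, 6 in the strongest 3919 peaks, and 8 to 9 when a replicate was left out. The 9 bound pathway genes became 15 within 5000 bp and 7 within 500 bp. They became 5 in the strongest 3919 peaks and 13 in the pooled list. The count was 9 with either replicate left out, but need not hold the same genes. The dsx summit ranked 11386 in replicate 4, outside the strongest 7838 peaks of that list. The DM core was in 0 windows within 50 bp of the summits and in 1 within 200 bp, the fru match upstream of fru-RM. The strongest Sxl site ranked 715 to 776 and the strongest fru site 1761 to 1851 in the replicate lists. No paired analysis was possible because the series holds 1 group. Unknown depth and the absence of control peaks limit what a missing peak shows.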
